A study of Mus musculus with 2 samples.

Results

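Shank1, Shank2 and Shank3 encode large scaffolds of the postsynaptic density, and Homer1, Homer2 and Homer3 encode adaptors that bind them. N6-methyladenosine (m6A) sites were counted for these 6 genes in lists made by GLORI (glyoxal and nitrite-mediated deamination), an assay in which unmethylated adenosine is deaminated and then read as G while m6A is still read as A. A site belonged to a gene when its position lay inside the gene's interval in GENCODE M21 (GRCm38) on the gene's strand. By this rule the 6 genes held 94 of the 79355 sites of the cerebellum library and 223 of the 188295 sites of the cerebrum library. They made 248 different positions, of which 69 were in both lists.

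Each tissue was represented by 1 library of poly(A) RNA, taken at P0 from the F1r cross, which has a C57 mother and a PWK father. The methods name 1 female as the source of both tissues. Both libraries thus share genotype, age, sex and animal. The lists name positions and carry neither methylation rates nor read counts, so an adenosine missing from a list may carry no m6A, lie in an mRNA that was not expressed, or have had few reads. With 1 library per tissue no test was possible, and every difference below is a difference between these 2 libraries. Intervals are 95% Wilson intervals and cover counting error over sites only. Fewer cells of a type and less RNA per cell cannot be told apart in such bulk samples.

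The tissue labels were checked with marker genes, since the name of the cerebrum file also carries an abbreviation of cerebellum. Of 13 forebrain genes, 13 had a DRACH site in the cerebrum library and 4 in the cerebellum library. Of 12 cerebellum and hindbrain genes, 7 had a DRACH site in the cerebellum library and 3 in the cerebrum library, and En2, a hindbrain transcription factor, had 8 and 0 sites. Zic1 had 14 in each, and Zic4 went the other way with 4 and 13. Atoh1, Pax2, Hoxa2, Lmx1a and Skor2 had none in either list.

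Shank proteins carry ankyrin repeats, an SH3 and a PDZ domain near the amino terminus, then a long proline-rich stretch that binds Homer and cortactin, and a SAM domain at the carboxyl terminus. Homer proteins bind short proline-rich motifs in Shanks, group I metabotropic glutamate receptors and intracellular calcium channels through an EVH1 domain, and long Homers join into multimers through a coiled coil. Short products of Homer1 lack the coiled coil, and the best known of them is induced by neuronal activity. In mRNA, m6A is written mostly on the DRACH motif (D is A, G or T, R is A or G, and H is A, C or T), and it is known to be dense in long exons and sparse near exon junctions.

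The sequences below are DRACH adenosines at matched positions of the 3 Shank genes, shown because the genes differ in which of them were listed, with the 5-mer in capitals and 10 bases of GRCm38 on either side, all on the plus strand. The first set is from the long exon before the last. It shows 1 of the 2 positions at which the pairwise protein alignments matched listed adenosines of all 3 genes. Shank1 has it at chr7:44354043-44354063, Shank2 at chr7:144411462-144411482 and Shank3 at chr15:89549449-89549469.
Shank1 exon 24: gagctcctGGACAcctacgtt
Shank2 exon 22: gagagcatGGACAcctgcaca
Shank3 exon 21: gaactcacGGACAcccacacc
The second set is from the coding part of the last exon. It shows the 3 distances from the stop codon at which all 3 genes have a DRACH adenosine, and the first of these is the other matched position. The windows lie 124 nt before the end of the stop codon at chr7:44357203-44357223, chr7:144421001-144421021 and chr15:89558189-89558209, 79 nt before it at chr7:44357248-44357268, chr7:144421046-144421066 and chr15:89558234-89558254, and 37 nt before it at chr7:44357290-44357310, chr7:144421088-144421108 and chr15:89558276-89558296.
Shank1, 124 nt: cagttcctGGACCacgagatt
Shank2, 124 nt: acgttcatGGACAatgagatt
Shank3, 124 nt: cgcttcgaGGACCatgagatc
Shank1, 79 nt: accaaggaGGACTatgtggac
Shank2, 79 nt: cagaaggaAGACTtgatagat
Shank3, 79 nt: accaaggaAGACTtcgtggag
Shank1, 37 nt: caccgtatGAACAttgaccgg
Shank2, 37 nt: cataggatGAACAtagaaagg
Shank3, 37 nt: caccgcatGAACAtcgagcgt

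The Shank genes carried most of the sites. On exons of coding isoforms, Shank1 had 25 DRACH sites in the cerebellum library and 26 in the cerebrum library, of which 22 were in both. Shank2 had 22 and 40, of which 18 were in both. Shank3 had 13 and 19, of which 11 were in both. By these counts Shank1 was alike in both lists, whereas the list of Shank2 was longer in the cerebrum library. With all sites of the gene interval, Shank1 had 32 and 48, and Shank2 had 32 and 74. A longer cerebrum list was usual. Over coding genes with at least 5 such sites in each library, the median ratio of cerebrum to cerebellum counts was 1.40. The ratio was 1.04 for Shank1 and 1.82 for Shank2.

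Among the Homer genes the sites were mainly those of Homer1. Homer1 had 9 DRACH sites in the cerebellum library, each of which was also among the 20 of the cerebrum library. Homer2 had 0 and 2, and Homer3 had 0 and 4. Homer2 and Homer3 were thus listed in the cerebrum library alone.

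**Figure D1:**
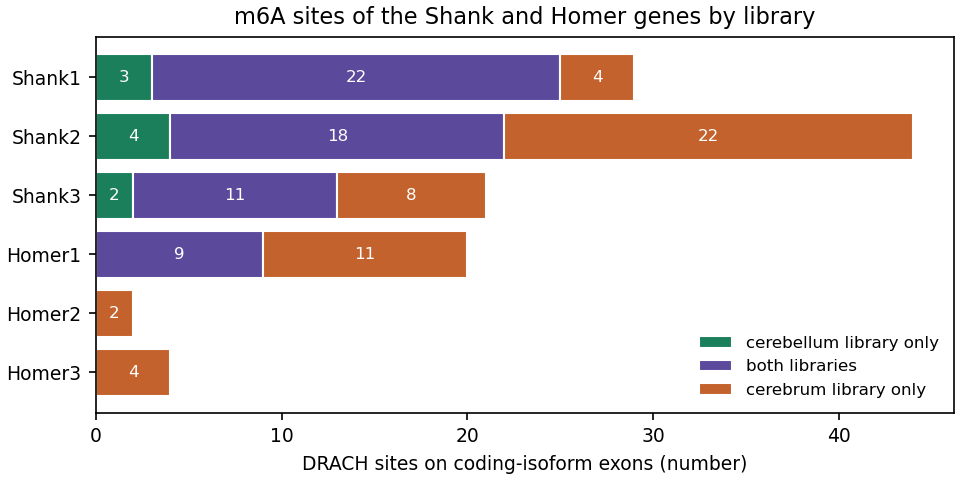
Number of DRACH sites on exons of coding isoforms for each gene (bars, x axis), split into sites listed in the cerebellum library only, in both libraries and in the cerebrum library only. Shank1 has 22 shared sites, Shank2 has 22 sites listed in the cerebrum library only, and Homer2 and Homer3 have none in the cerebellum library.

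For comparison, 34.9% of 20718 coding genes had at least 1 DRACH site on their longest coding isoform in the cerebellum library and 45.0% had one in the cerebrum library. Of the 6 genes, 4 had such a site in the cerebellum library and 6 in the cerebrum library. The share of a gene's DRACH adenosines that were listed takes account of the different lengths of the genes. Over all coding genes with a site it was 6.54% in the cerebellum library and 9.13% in the cerebrum library. Over the 3 Shank genes it was 11.9% (interval 9.32 to 15.0; 59 of 497) and 17.1% (14.0 to 20.7; 85 of 497). Over the 3 Homer genes it was 1.20% (0.512 to 2.77; 5 of 418) and 3.59% (2.19 to 5.84; 15 of 418). The pooled Shank intervals lie above the value over coding genes with a site and the pooled Homer intervals below it, in both libraries. By gene, over all annotated exons in the cerebellum library, the interval of Shank3 (5.13 to 14.3) includes the 6.54%. Those of Shank1 (9.53 to 19.6) and Shank2 (6.95 to 15.2) lie above it. Homer2 holds 263 of the 418 Homer adenosines. Homer2 and Homer3 had no site in the cerebellum library, so they would not enter that background. Homer1 alone had 5 of 112 listed there (4.46%). Over all coding genes, with or without a site, the share was 3.06% and 5.23%. The Homer interval lies below the 3.06% in the cerebellum library and includes the 5.23% in the cerebrum library.

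Within each family the genes were spread. In the cerebellum library 14.7% of the adenosines of Shank1, 10.8% of Shank2 and 9.77% of Shank3 were listed. In the cerebrum library the values were 15.3%, 20.6% and 14.3%, so that Shank2 moved from the second to the first place. Among 9099 coding genes with at least 20 DRACH adenosines and a site in the cerebrum library, 89.9% had a lower share than Shank2, 81.2% a lower share than Shank1 and 78.8% a lower share than Shank3. Homer2 was at the other end, with 2 of 263 adenosines listed and 1.26% of those genes below it. Homer1 and Homer3 were near the middle in the cerebrum library, with 8.04% and 9.30% of adenosines listed and 57.1% and 62.8% of those genes below them. In the cerebellum library Homer1 had 4.46%, with 49.4% of 7083 such genes below it. These Homer1 values are those of Homer1-204, its longest isoform, which encodes a short product. Over all annotated exons of Homer1, 9 of 244 adenosines were listed in the cerebellum library (3.69%) and 20 of 244 in the cerebrum library (8.20%).

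On the longest isoforms of the Shank genes the DRACH sites lay in the last 2 exons, with 1 exception in Shank2. Positions of other motifs also lay in early exons and introns, and 35 of the 173 Shank positions of any motif were intronic. Shank1 lies at chr7:44310253-44360572, and its longest coding isoform has 9826 nt and 25 exons. Its first 23 exons hold 73 DRACH adenosines in 2785 nt, and none of them was listed in either library. Exon 24, with 3088 nt, held 12 listed adenosines of 34 in each library, and the last exon, with 3953 nt, held 13 and 14 of 63. The first DRACH site of the isoform came 4958 nt after its start, after 87 unlisted DRACH adenosines.

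Shank2 lies at chr7:144001928-144424494, with a longest coding isoform of 8988 nt and 23 exons. Of the 57 DRACH adenosines in its first 21 exons, 0 were listed in the cerebellum library and 1 in the cerebrum library, in exon 12. Exon 22, with 2407 nt, held 11 and 18 listed adenosines of 50, and the last exon, with 3936 nt, held 10 and 21 of 87. The larger number in the cerebrum library was thus found in both long exons. A further site, listed in the cerebellum library only, lay in the 5′ UTR of the shorter isoform Shank2-205.

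Shank3 lies at chr15:89499623-89560261, with a longest coding isoform of 7365 nt and 22 exons. None of the 57 DRACH adenosines of its first 20 exons was listed. Exon 21, with 2257 nt, held 11 and 13 listed adenosines of 38, and the last exon, with 2527 nt, held 2 and 6 of 38. In Shank3 the exon before the last thus held 11 of 13 sites in the cerebellum library and 13 of 19 in the cerebrum library.

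**Figure D2:**
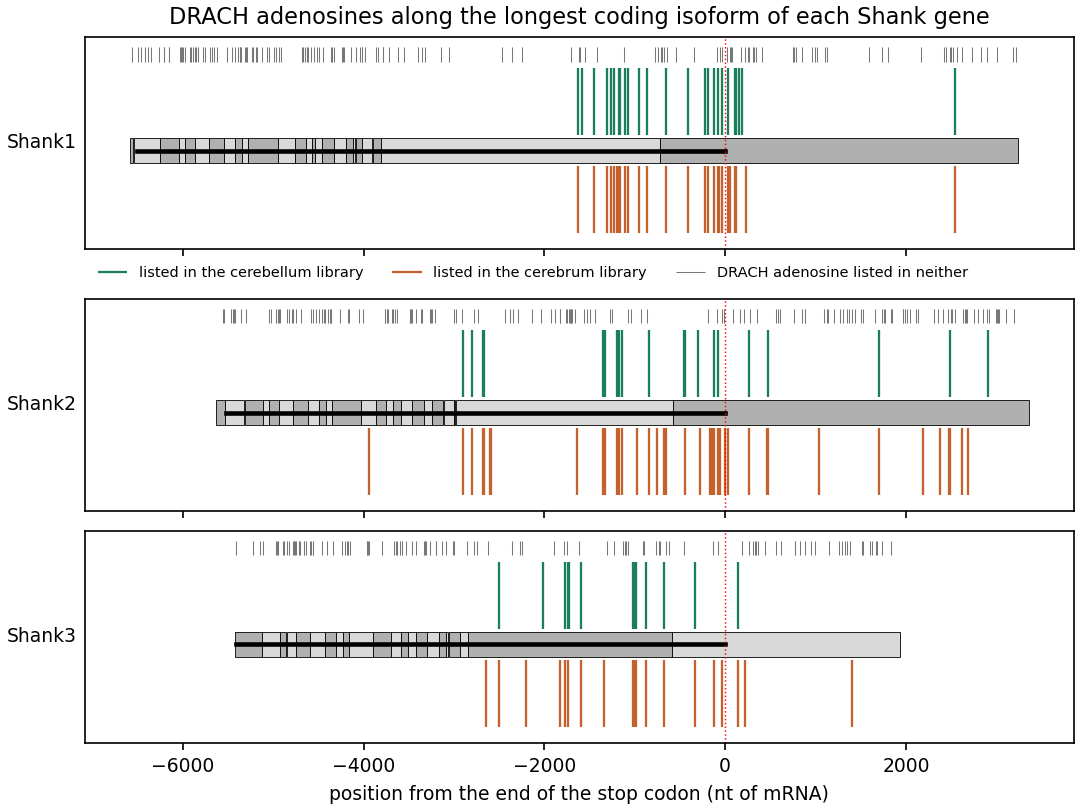
Longest coding isoform of each Shank gene as mature mRNA, aligned at the end of the stop codon (dotted line; x axis in nt). Boxes are exons in alternating shades, the black line is the coding sequence, green bars are DRACH adenosines listed in the cerebellum library, orange bars those listed in the cerebrum library, and small grey bars those listed in neither; the many short exons on the left carry grey bars and 1 orange bar, in Shank2.

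Exon length separated listed from unlisted adenosines in other genes too. Over coding genes with a site, 2.06% of the DRACH adenosines in internal exons under 1000 nt were listed in the cerebellum library and 3.10% in the cerebrum library, against 16.6% and 23.3% in internal exons of 1000 nt or more. In the Shank genes the short internal exons had 0 of 181 (0 to 2.08) and 1 of 181 (0.552%, 0.0976 to 3.06). The long exon before the last had 34 of 122 (27.9%, 20.7 to 36.4) and 43 of 122 (35.2%, 27.3 to 44.1). For short internal exons the value of other genes lies at the upper end of the Shank interval in the cerebellum library and just above it in the cerebrum library. For long internal exons it lies below the pooled Shank interval in both. By gene, it lies inside the interval of Shank2 in the cerebellum library (12.8 to 35.2). In the cerebrum library it lies inside those of Shank1 (21.5 to 52.1) and Shank3 (21.2 to 50.1).

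Last exons differed between the genes. Pooled, they had 13.3% (9.17 to 18.9) of the Shank adenosines listed in the cerebellum library and 21.8% (16.5 to 28.2) in the cerebrum library, against 8.55% and 12.0% over coding genes with a site. In the cerebellum library this rested on Shank1, with 20.6% (12.5 to 32.2), since the intervals of Shank2 (6.36 to 19.9) and Shank3 (1.46 to 17.3) include the value of other genes. By distance, 3 of 195 Shank adenosines under 100 nt from an exon junction were listed in the cerebellum library and 6 of 195 in the cerebrum library (1.54% and 3.08%, against 1.28% and 2.08% over coding genes with a site). At 100 nt or more the Shank shares were 18.5% and 26.2%, against 9.26% and 13.0%. The values of other genes lie inside the Shank intervals near junctions (0.525 to 4.42 and 1.42 to 6.55) and below them at 100 nt or more (14.6 to 23.3 and 21.5 to 31.4).

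**Figure D3:**
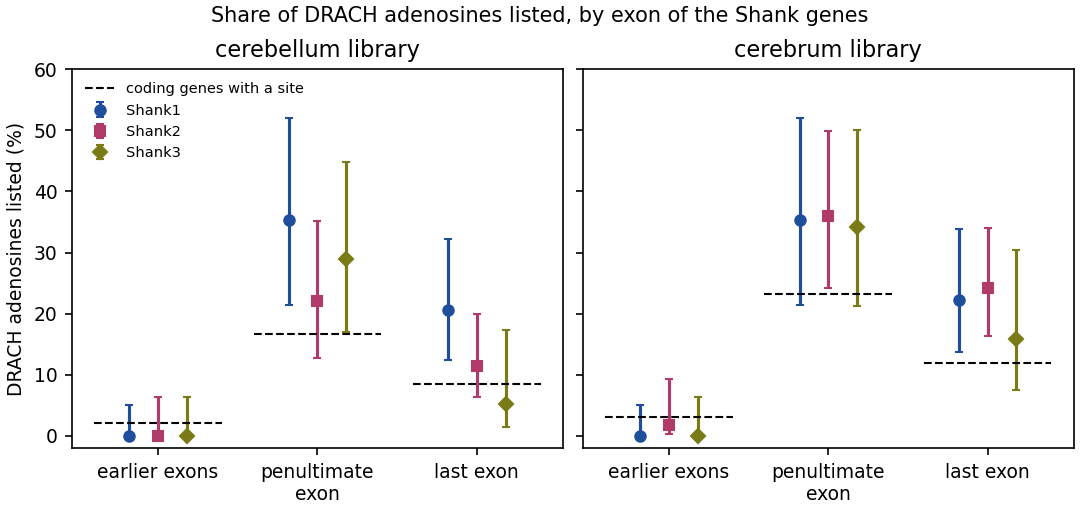
Share of DRACH adenosines listed (y axis, %) in the exons before the penultimate one, in the penultimate exon and in the last exon of each Shank gene, in the cerebellum library (left) and the cerebrum library (right). Symbols are shares with 95% Wilson intervals, and dashed lines give the share over coding genes with a site in internal exons under 1000 nt, internal exons of 1000 nt or more and last exons; the long penultimate exons reach 22.0% to 36.0%, and the earlier exons 0% to 1.75%.

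The Shank sites lay mainly in the coding sequence. It held 47 of 60 DRACH sites in the cerebellum library (78.3%, 66.4 to 86.9) and 64 of 85 in the cerebrum library (75.3%, 65.2 to 83.2), against 39.9% and 41.3% over all coding genes. The 3′ UTR held 12 and 21. Within 200 nt of the end of the stop codon there were 12 of the 60 Shank sites in the cerebellum library and 20 of the 85 in the cerebrum library (11.8 to 31.8% and 15.8 to 33.6%), and the 21.9% and 22.0% over all coding genes lie inside these intervals. Counted by adenosine, 12 of 39 at that distance were listed in the cerebellum library (30.8%, 18.6 to 46.4) and 20 of 39 in the cerebrum library (51.3%, 36.2 to 66.1), against 14.8% and 19.8%. In the cerebellum library the adenosine share rested on Shank1, with 9 of 19, while Shank2 had 2 of 14 and Shank3 1 of 6. In the cerebrum library they had 9, 8 and 3.

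Sites were closely spaced. The window of 1000 nt with the most DRACH sites held 13 in Shank1 in each library, 12 of them in exon 24 and 1 at the start of exon 25. In Shank2 the fullest window held 9 in the cerebellum library and 15 in the cerebrum library. In Shank3 it held 8 and 9. The median gap between neighbouring sites on the mRNA was 54 nt in Shank1, 89 nt in Shank2 and 165.5 nt in Shank3 in the cerebrum library. Shank1 thus had the shortest median gap, and Shank2 the fullest window in the cerebrum library.

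GGAC was the leading start of the 5-mer. Among Shank DRACH sites in the coding sequence 30 of 47 in the cerebellum library (63.8%, 49.5 to 76.0) and 35 of 64 in the cerebrum library (54.7%, 42.6 to 66.3) began with GGAC, against 29.8% and 31.4% over all coding genes. The Shank mRNAs are themselves rich in it: 142 of their 497 DRACH adenosines were in GGAC (28.6%, 24.8 to 32.7), against 17.3% in coding genes with a site in the cerebellum library. Of those 142, 23.9% were listed in the cerebellum library and 31.0% in the cerebrum library, against 11.1% and 16.2% over coding genes with a site.

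Motif and exon were combined in the long penultimate exons. There 22 of 44 GGAC adenosines were listed in the cerebellum library (50.0%, 35.8 to 64.2) and 25 of 44 in the cerebrum library (56.8%, 42.2 to 70.3). Long internal exons of coding genes with a site had 25.5% and 38.2%. Of the other DRACH adenosines in those Shank exons 15.4% and 23.1% were listed, and the values of 14.6% and 19.9% over coding genes with a site lie inside the Shank intervals. In the short internal exons of the Shank genes 0 of 53 GGAC adenosines were listed in either library, against 3.62% and 5.61%. For GGAC adenosines the values of long internal exons of coding genes with a site thus lie below the Shank intervals. These intervals pool 3 exons of 3 genes and do not cover the spread between genes, which was not tested.

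The alignments of the Shank proteins were used to compare positions between the genes, since the genes share their domain order. From 49.4% to 52.1% of aligned residues were identical. Shank1 and Shank2 had 31 aligned pairs of coding adenosines that were DRACH in both genes; in 3 of these both were listed in at least 1 library, in 5 one of the pair was listed and in 23 neither was. Shank1 and Shank3 had 3, 2 and 18 such pairs of 23, and Shank2 and Shank3 had 3, 2 and 26 of 31. Most listed coding sites had no DRACH adenosine at the aligned base of the other gene.

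Of the 3 distances shown at the stop codon, the one at 124 nt was listed in all 3 genes, in both libraries for Shank1 and Shank2 and in the cerebrum library for Shank3. The adenosine at 79 nt was listed in both libraries for Shank1 and Shank2 and in neither for Shank3. The adenosine at 37 nt was listed in both libraries for Shank1, in neither for Shank2 and in the cerebrum library for Shank3. The 5-mer at 37 nt was the same in the 3 genes, so a gene with an unlisted adenosine had the same 5-mer there as the genes with a listed one. In the set from the long exon, the site was in both libraries for Shank1 and Shank3 and in the cerebrum library for Shank2. These positions were picked after their values had been seen.

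A group of Shank1 sites lay between exons 24 and 25. DRACH sites were listed 111 nt and 220 nt after the end of exon 24 in both libraries, and 454 nt after it in the cerebellum library. No GENCODE M21 transcript has an exon there. A predicted RefSeq model on the same build ends in an exon of 454 nt at chr7:44354748-44355201, which covers all 3 positions. In Shank2 a DRACH site listed in the cerebrum library lay 155 nt after the end of exon 22. Another, in the first exon of a predicted RefSeq model at chr7:144238691-144239093, lay in the intron between exons 13 and 14. Further Shank2 positions lay between exons 16 and 17, at least 1720 nt from the nearest exon end of any transcript. They were chr7:144288486 (cerebellum library), and chr7:144314134 and chr7:144362941 (cerebrum library). In Shank3, of 2 intronic DRACH sites in the cerebrum library, 1 lay in the last exon of a predicted RefSeq model, which overlaps the last GENCODE exon, at chr15:89556721-89558198.

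Homer1, whose product links Shanks to metabotropic glutamate receptors, had a different layout. The gene lies at chr13:93299635-93405129 and has 11 complete coding isoforms. They start at several first exons and end either early, in an extended exon 5 or in alternative exons behind it, or late, in the exon that closes the long coding sequence with the coiled coil. The 5′ windows below, from exon 1 of Homer1-204, are shown because all 5 were listed in both libraries, and the last window is the shared site of the alternative last exon of Homer1-206. They lie at chr13:93304691-93304711, chr13:93304702-93304722, chr13:93304988-93305008, chr13:93305094-93305114, chr13:93305141-93305161 and chr13:93366595-93366615, all on the plus strand, with the 5-mer in capitals.
Homer1 5′ UTR, site 1: aggaggacGAACAttcaaagg
Homer1 5′ UTR, site 2: cattcaaaGGACAgattccaa
Homer1 5′ UTR, site 3: tttttatcAGACTtgctgaag
Homer1 5′ UTR, site 4: aaatgtttGAACAttttggtg
Homer1 5′ UTR, site 5: acaagaacTAACTgaattgtc
Homer1 alternative exon: aatgtcatGGACCttgcttca

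Of the parts of Homer1 compared, the 5′ UTR of Homer1-204 had the largest listed share. Of its 13 DRACH adenosines in 803 nt, 5 were listed in the cerebellum library (38.5%, 17.7 to 64.5) and 7 in the cerebrum library (53.8%, 29.1 to 76.8). Over coding genes with a site the 5′ UTR had 3.60% and 5.07%. The 5′ UTR sites were 5 of the 9 DRACH sites of Homer1 in the cerebellum library and 7 of the 20 in the cerebrum library, against 2.76% and 2.90% of the sites of all coding genes. Of these 7 sites 1 began with GGAC.

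The extended exon 5 that ends the short isoform Homer1-204 was almost empty of DRACH sites. Its 3′ UTR of 4349 nt has 84 DRACH adenosines, of which 0 were listed in the cerebellum library (0 to 4.37) and 2 in the cerebrum library (2.38%, 0.655 to 8.27), against 7.69% and 10.6% of 3′ UTR adenosines over coding genes with a site. The last exon of the isoform with the longest coding sequence, of 3089 nt, held 3 of 65 (4.62%, 1.58 to 12.7) and 8 of 65 (12.3%, 6.37 to 22.5). One of its sites lay in the coding sequence, 48 nt before the end of the stop codon, and was listed in both libraries. The alternative last exon of Homer1-206 held 1 and 3 of 18. Intronic DRACH sites of Homer1 were listed at chr13:93366149 in both libraries and at chr13:93363584 in the cerebellum library. They lay 94 nt and 2659 nt from the nearest exon end of any transcript. Whether the short isoform was expressed in these samples was not measured.

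Isoforms were also split by where they stop. In bases found only in isoforms with an earlier stop codon, 3 DRACH sites were listed in the cerebellum library and 7 in the cerebrum library, among 116 DRACH adenosines. In bases found only in isoforms with the far stop codon there were 2 and 6 among 71. In bases of both kinds there were 4 and 7 among 36. Homer1-208 has an earlier stop codon but ends in the last exon of the long isoforms. The sites of that exon at chr13:93402181 (both libraries) and chr13:93402284 (cerebrum library) thus count as bases of both kinds. The classes therefore do not separate short from long Homer1 mRNAs. Of the 5 shared sites of the 5′ UTR, the first 2 lie before the start of every isoform with the far stop codon, and the other 3 lie in bases of both kinds. The listed share was 2.59% (0.883 to 7.33), 2.82% (0.776 to 9.70) and 11.1% (4.41 to 25.3) in these 3 classes in the cerebellum library, with overlapping intervals.

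**Figure D4:**
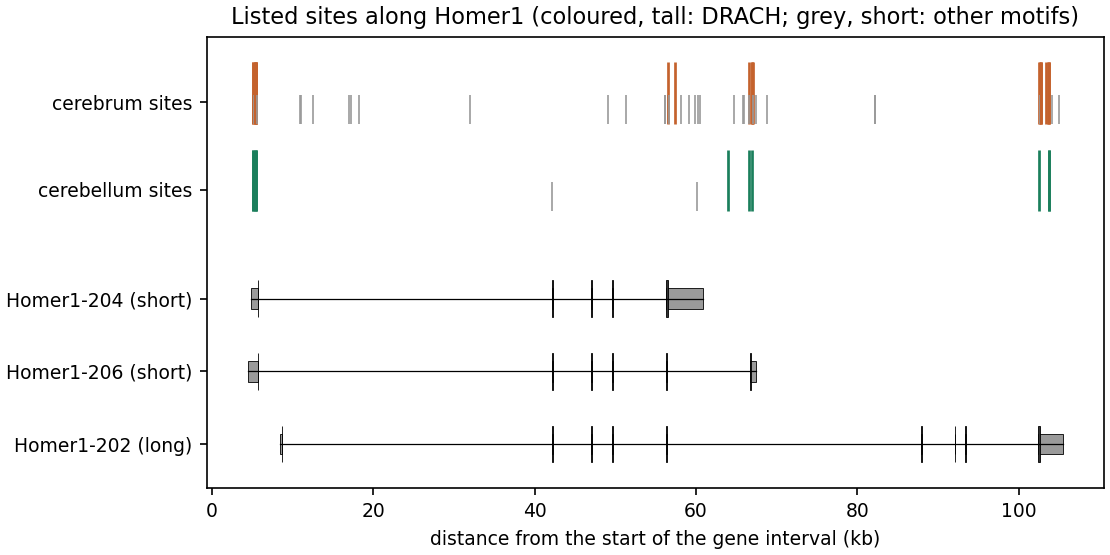
Sites along Homer1 by distance from the start of the gene interval (x axis, kb), above 3 of its isoforms (grey boxes are UTRs, dark boxes coding exons, the line introns). Tall coloured bars are DRACH sites and short grey bars sites with another motif. Both libraries have a group of DRACH sites in the first exon of Homer1-204. The extended exon 5 near 60 kb has no DRACH site in the cerebellum library.

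Homer2 and Homer3, whose long products carry the same EVH1 domain and coiled coil, had no site of any motif in the cerebellum library. Homer2 lies on the minus strand at chr7:81600481-81707527 and has a last exon of 9961 nt with 238 DRACH adenosines. In the cerebrum library 2 of these were listed, 8868 nt and 9552 nt behind the stop codon, in the distal end of the 3′ UTR. Homer3 lies at chr8:70282827-70294361. Its 4 DRACH sites, all in the 3′ UTR and listed in the cerebrum library, made 9.30% of its 43 DRACH adenosines. The levels of these mRNAs in the cerebellum library are unknown, so the empty lists do not say that the adenosines were unmethylated.

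Sites without a DRACH motif made 19 of the 94 positions in the cerebellum library and 102 of the 223 in the cerebrum library. The DRACH share was 79.8% (70.6 to 86.7) and 54.3% (47.7 to 60.7), against 63.8% and 48.4% over all coding genes. Of the 115 such positions 6 were in both lists (5.22%, 2.41 to 10.9), whereas 63 of the 133 DRACH positions were (47.4%, 39.1 to 55.8). Over all coding genes 6.52% and 41.7% of positions were in both, and both values lie inside these intervals. Homer1 in the cerebrum library had the largest number of them, 33 of its 54 sites, of which 18 lay in introns together with 1 DRACH site. In Homer2 they were 9 of 11. Non-DRACH positions were thus largely those of 1 library, here as in coding genes at large, and the counts of single genes depend on whether they are kept.

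The tissues were compared by the ratio of cerebrum to cerebellum counts of DRACH sites on coding exons. Over 7022 coding genes with a site in both libraries its median was 1.62, and over the 2772 genes with at least 5 sites in each it was 1.40, with the middle 90% from 0.915 to 2.60. The ratio was 1.04 for Shank1, 1.46 for Shank3, 1.82 for Shank2 and 2.22 for Homer1. All 4 lie inside that range. Of the 2772 genes 13.7% had a lower ratio than Shank1 and 89.2% a lower ratio than Homer1. Of the DRACH sites of the 6 genes in the cerebellum library 87.0% (77.0 to 93.0) were also in the cerebrum library, and 54.1% (44.8 to 63.0) the other way, against 83.6% and 49.0% over all coding genes.

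The genes most like each of the members in their counts of cerebellum-only, shared and cerebrum-only DRACH sites were found by Euclidean distance on log2(count + 1), over these 3 counts. For Shank1, with 3, 22 and 4, they were Adcyap1r1 with 3, 23 and 5 and Setd5 with 3, 17 and 4. For Shank2, with 4, 18 and 22, they were Wnk1 with 4, 19 and 20 and Lrrc8b with 4, 16 and 19. Shank3 had the same counts as 2510009E07Rik and Chst10, and Homer1 the same as Garem1 and Kdm6a. For Homer3 the nearest were Armc6 and Gatad1, among 150 genes with the same counts.

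Binding partners of the scaffolds were taken from a list of 30 genes for their receptors, channels and co-scaffolds. Of all coding genes, 34.9% had a DRACH site on the longest coding isoform in the cerebellum library and 45.0% in the cerebrum library. Among the 30 partners, such a site was found for 24 in the cerebellum library and 28 in the cerebrum library. In those genes 5.94% (5.18 to 6.80) and 7.92% (7.09 to 8.84) of DRACH adenosines were listed, below the 6.54% and 9.13% over coding genes with a site in the cerebrum library and not separable from it in the cerebellum library. The median per gene was 4.35% and 5.93%, against 4.65% and 6.76% over coding genes with a site. The partner genes as a group thus did not have the dense listing of the Shank genes.

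Single partners stood beside the Shank genes. Grm5, the metabotropic glutamate receptor that Homer binds, had 38 DRACH sites in the cerebellum library and 40 in the cerebrum library. Adgrl1, an adhesion receptor that binds Shank, had 25 and 28. Ryr1, a calcium release channel, and Sptan1, a spectrin of the membrane skeleton, had none on coding exons in either library. In the whole gene interval Sptan1 had 5 in each library, whereas Ryr1 had none. Dlg1, Baiap2 and Sharpin had none in the cerebellum library, with 3, 4 and 1 in the cerebrum library. Dlg4 had none on its longest coding isoform in the cerebellum library but 5 on exons of other coding isoforms.

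**Figure D5:**
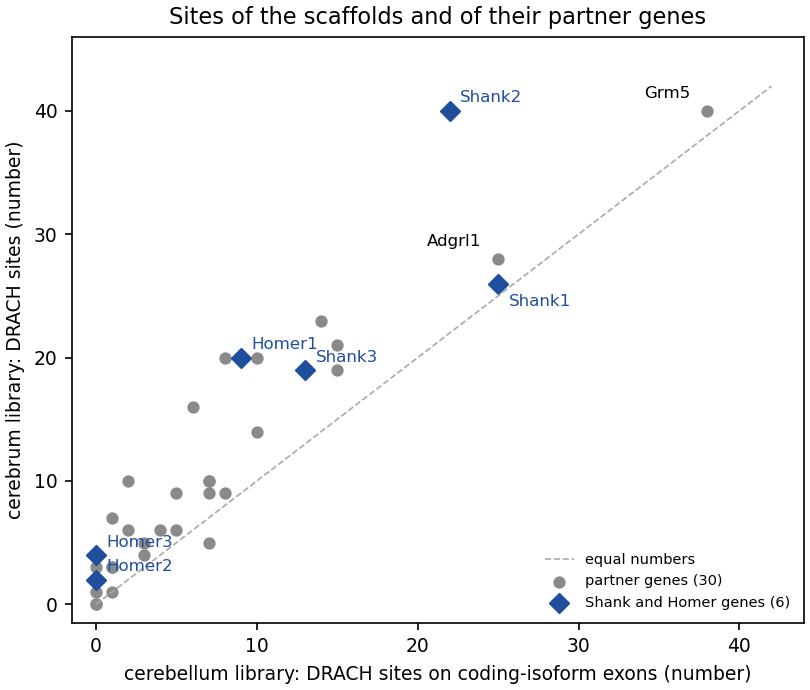
Number of DRACH sites on exons of coding isoforms in the cerebellum library (x axis) and the cerebrum library (y axis) for the 6 Shank and Homer genes (blue diamonds) and 30 partner genes (grey points); the dashed line marks equal numbers. Grm5 (38 and 40) and Shank2 (22 and 40) have the most sites in the cerebrum library, and Shank1 (25 and 26) lies close to the line.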

How the data were processed

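GLORI was carried out by the authors on 1 cerebellum and 1 cerebrum library. Per the methods, sites were called with GLORI-tools on mm10 and on PWK-mm10, the sets were united, and a site was kept where its rate of methylation exceeded 0.1 and it had more than 8 reads. The deposited files list the retained positions with their strand. They hold no rate or count, so depth is unknown, and a site can be absent for want of coverage. Tissues were taken from the sample labels, since the cerebrum file's name also carries an abbreviation of cerebellum.

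Every position was looked up in GRCm38, which mm10 names, and in GENCODE M21. A site was assigned to the longest complete coding isoform covering it. DRACH adenosines were counted on the longest coding isoform, with coding genes that have a site as background. Sites in overlapping genes were counted for each. Shank proteins, translated from GRCm38, were aligned globally in pairs (BLOSUM62, Biopython 1.88). For Homer1, the far stop codon is that of the isoform with the longest coding sequence. Python 3.11.15, numpy 2.4.6 and matplotlib 3.10.9 were used. Tested against known answers, the 5-mer and the position were recovered for 100% of 6043 transcript bases, and simulated listed shares of 10% and 2% came back as 10.0% and 1.96%.

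The 6 genes and the lists were chosen with earlier results of these data known. The genes named are the members, the 2 nearest genes of each member with at least 3 DRACH sites, and, from the lists, genes with no site and the 2 with the most sites. En2, Zic1 and Zic4 were chosen after their values were seen. A withheld item is not reported here. Alternatives changed the motif filter, the isoform, the windows and the background.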

Additional observations from a re-analysis of the deposited data

How the results depend on the processing

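No paired analysis was possible because each tissue has 1 library, and for the same reason no library could be left out. Of 121 alternative values, 100 stayed within 1.5 times the count or within the interval of the value given. Keeping DRACH sites alone lowered the number of sites of the 6 genes in the cerebrum library from 223 to 121, and keeping RRACH sites (R is A or G) alone lowered it to 112. RRACH adenosines raised the listed share of the Shank genes in the cerebrum library from 17.1% to 21.4%. On coding exons alone, the DRACH share in the cerebrum library rose from 61.8% to 71.4% for the Shank genes and from 38.0% to 50.0% for the Homer genes. With all sites of the gene interval, the ratio of cerebrum to cerebellum sites of the Homer genes rose from 2.89 to 4.73. Of the other 15 values that moved, most were counts of single genes under the motif filters. Homer1 had 35 sites in exons of any transcript, against 54, in the cerebrum library, and a ratio of 3.60 with all sites, against 2.22. The listed share over all coding genes, with or without a site, was 3.06% and 5.23%. These alternatives keep fewer positions, more positions (all sites of the interval) or another set of adenosines by construction. Depth is unknown, and without read counts an unlisted site cannot be separated from a thinly covered one.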

Other observations

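In the coding part of the last 2 exons of the Shank genes, DRACH adenosines were listed at each codon position. At the first position 8 of 34 were listed in the cerebellum library and 9 of 34 in the cerebrum library, at the second 26 and 40 of 89, and at the third 13 and 14 of 37. The shares ran from 23.5% to 35.1% and from 26.5% to 44.9%, with intervals that overlap, against 10.2% to 11.4% and 14.3% to 16.3% over coding genes with a site.

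One of the 248 positions, in the alternative last exon of Homer1 and in the cerebrum library, is no adenosine in GRCm38, and the authors' calls were also made on PWK-mm10. Of the Homer1 positions 2 also lie in another annotated gene on the same strand, Gm47075 or Gm47088. On the strand opposite to the 6 genes, 1 cerebrum site each fell in the intervals of Shank3 and Homer3, inside Gm15609 and Ddx49.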
